A study of Mus musculus with 12 samples.

Results

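The genes described here are those whose response to mechanical ventilation depended on the Zmpste24 genotype of the mouse. For each of 22180 genes measured in mouse lung, the ventilation change in wildtype lungs (ventilated minus intact, log2 group means) was subtracted from the change in Zmpste24-deficient lungs, and this difference of differences, the interaction, was tested with limma over all 12 arrays. At an adjusted p under 0.05, 70 of the 22180 genes passed, which is 0.316% of the genes tested. The interaction was positive in 59 of them (0.266%), meaning that the deficient lungs moved further up or less far down, and negative in 11 (0.0496%). The genes that passed were sorted by the signs and sizes of their single changes. A gene was called baseline-driven where the genotypes differed more in intact than in ventilated lungs. Of the others, a gene was called reversed where both changes were at least 0.25 on the log2 scale and had opposite signs, and amplified or blunted where the larger change was in the deficient or in the wildtype lungs. This gave 45 amplified, 6 blunted, 7 reversed and 12 baseline-driven genes.

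Zmpste24 encodes a membrane protease that completes the processing of prelamin A into lamin A, a filament protein of the nuclear lamina, and mice without it accumulate prelamin A and age prematurely. Mechanical ventilation inflates the lung by positive pressure and stretches its epithelium, endothelium and stroma. Stretched or stressed cells switch on immediate early genes within minutes (the FOS and JUN subunits of AP-1, EGR and NR4A factors), followed by heat shock chaperones, the integrated stress response, growth factor ligands and chemokines, and the nuclear lamina is one of the structures through which force reaches chromatin.

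Lung RNA came from female mice 10 weeks old, in 4 groups with 3 arrays each: intact wildtype, intact Zmpste24-deficient (Zmpste24-/-), ventilated wildtype and ventilated Zmpste24-/-. Ventilated mice received an inspiratory pressure of 15 cmH2O at 100 breaths per minute for 2.5 hours with an inspired oxygen fraction of 0.21, and intact mice were not ventilated. The labels call the arrays of a group biological replicates. The sources used here do not give the strain, how the allele was made or the time of day of collection. Values are deposited log2 intensities, and a difference of 1 on that scale is a doubling. Array medians lay between 5.345 and 5.423, arrays correlated at 0.986 to 0.992 within groups and at 0.97 to 0.988 between groups. Zmpste24 itself lay between 8.5 and 9.28 in the 6 wildtype arrays and between 5.01 and 5.91 in the 6 deficient arrays, so the arrays follow their genotype labels. These levels do not check the intact and ventilated labels. The interaction of Zmpste24 was -0.22 ± 0.32 (SE, limma, adjusted p = 0.858). Lmna, which encodes the lamin A precursor, had an interaction of 0.24 ± 0.16 (adjusted p = 0.638). In whole lung, fewer cells of a type and less RNA per cell cannot be told apart.

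Ventilation alone changed more genes in the deficient lungs. In wildtype lungs 1597 genes passed (7.2%), 815 higher (3.67%) and 782 lower (3.53%) after ventilation. In Zmpste24-deficient lungs 3641 passed (16.4%), 1972 higher (8.89%) and 1669 lower (7.52%). Of the 70 interaction genes, 21 rose and 7 fell in wildtype lungs, and 53 rose and 8 fell in deficient lungs; the interaction is built from these changes, so the counts describe the members. A gene that passed in one genotype and not in the other was seldom shown to differ between them: of the 3126 genes that passed in exactly 1 genotype, 51 passed the interaction (1.63%). The interaction is the less precise quantity, with a median standard error of 0.15 against 0.10 for a single ventilation change. Of the 140 genes with an interaction of at least 1 in size 33 passed, and the other 37 genes that passed had smaller ones, down to 0.59. Genes raised by ventilation in both genotypes (606) held 16 interaction genes, all with the larger rise in deficient lungs, while the 447 genes lowered in both held none. Genes raised in deficient lungs only (1365) held 36, and genes lowered in deficient lungs only (1220) held 6. Their signs, positive in the former and negative in the latter, are largely set by that grouping. Across all genes the changes in the 2 genotypes had a Pearson r of 0.62, a description over genes, which are not independent.

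**Figure D1:**
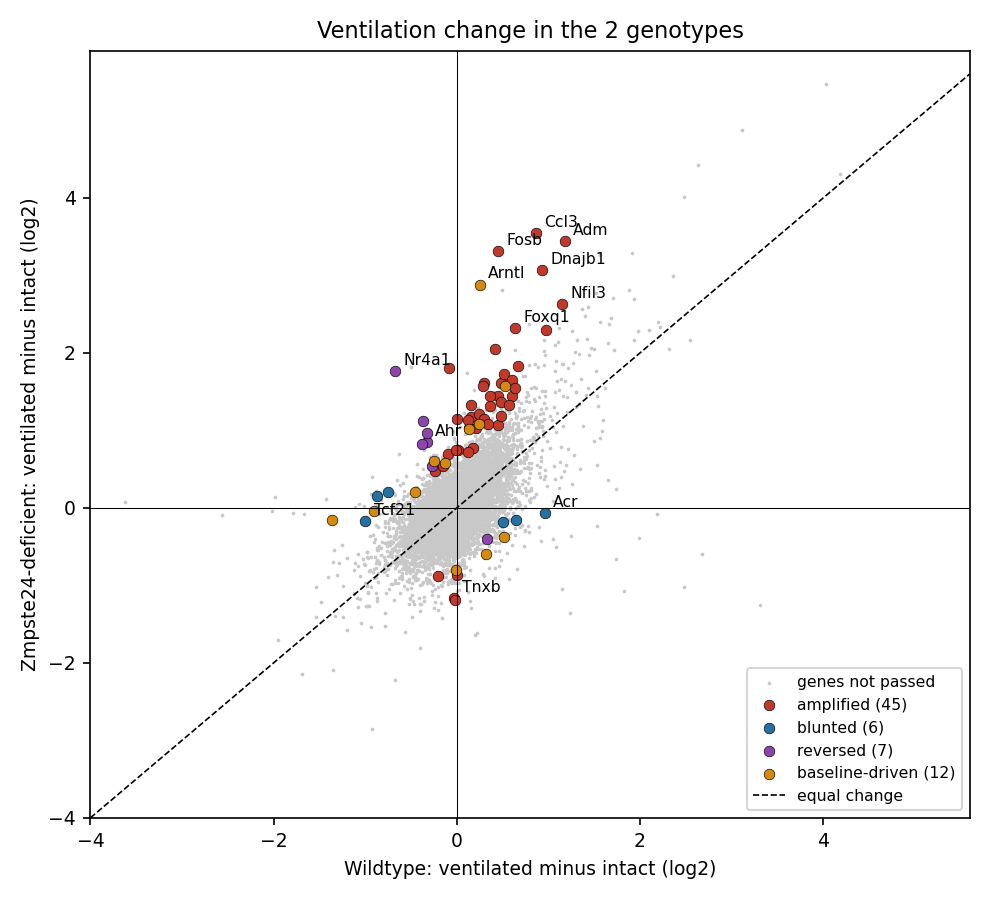
Ventilation change (log2) in wildtype lungs on the x axis and in Zmpste24-deficient lungs on the y axis, 1 point per gene; grey points did not pass the interaction, coloured points are the 70 genes by class and the dashed line marks equal change. The 45 amplified genes lie farther from the horizontal zero line than from the vertical one, and the 6 blunted genes lie close to the horizontal zero line.

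The number of genes that pass depended strongly on single arrays. Without wildtype intact array 1, 2 or 3 the fit passed 118, 17 and 21 genes, and without wildtype ventilated array 1, 2 or 3 it passed 82, 18 and 16. Leaving out deficient intact array 1, 2 or 3 gave 8, 18 and 21, and leaving out deficient ventilated array 1, 2 or 3 gave 61, 26 and 13. Each of the 70 genes kept the sign of its interaction in every one of the 21 refits that tested it, these 12 included; 63 genes were tested in all 21, and 7 dim genes were removed by a filter on low values. Adm, Ahr, Map2k3os, Brd2, Foxq1, Ier5 and Nfil3 passed in all 12 of these fits and 15 genes passed in at least 6, whereas Olfr1076, Ddit3 and Utp4 passed in none. Just inside the threshold were Ephb3 and Sgk1, both at an adjusted p of 0.0478 with interactions of 0.79 and 0.76. Just outside were Rasgef1b (0.0514) and Cpeb4 (0.0518), with interactions of 0.72 and 0.67. At an unadjusted p under 0.05 there were 2598 genes (11.7%).

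**Figure D2:**
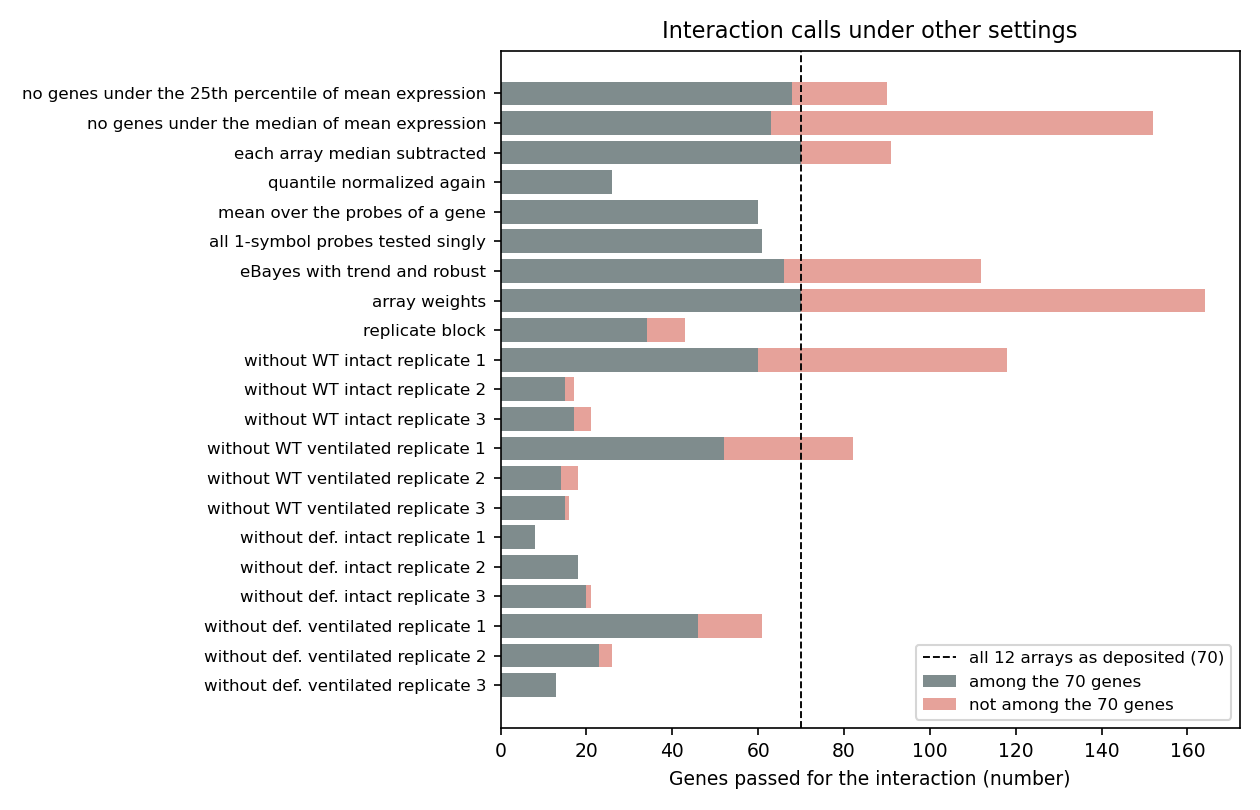
Number of genes that passed the interaction (x axis) under each alternative (y axis); grey bars count genes among the 70, pink bars genes not among them, and the dashed line marks 70. The count ran from 8 without deficient intact array 1 to 118 without wildtype intact array 1 among the fits that leave out 1 array.

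Amplified genes were the largest class, and 41 of the 45 were pushed further up in the deficient lungs. All 41 rose with ventilation in Zmpste24-/- lungs, and 15 of them also rose in wildtype lungs; the median change of the 45 genes was 0.34 in wildtype and 1.33 in deficient lungs. Averaged over the 41 genes, the 3 intact wildtype arrays lay at 7.45, 7.60 and 7.56 and the 3 intact deficient arrays at 7.38, 7.39 and 7.31. The ventilated wildtype arrays then lay at 8.04, 7.78 and 7.94 and the ventilated deficient arrays at 8.86, 8.84 and 9.01. In 40 of the 45 genes each of the 3 ventilated deficient arrays was above the other 9, an arrangement that 1242 of all genes (5.6%) showed; since the interaction used these arrays, that count describes the class.

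Adm encodes adrenomedullin, a peptide that widens vessels and tightens the endothelial barrier. It measured 6.55, 7.29 and 7.11 in intact wildtype lungs and 8.06, 7.92 and 8.50 after ventilation. In Zmpste24-/- lungs it measured 5.86, 5.85 and 6.04 intact and 9.35, 9.45 and 9.26 ventilated. The deficient lungs were the lowest group before ventilation and the highest after it, and no group overlapped another. The genotype difference was -1.07 ± 0.17 in intact and 1.19 ± 0.17 in ventilated lungs, close to the boundary of the baseline-driven class. Adm rose 2.26-fold in wildtype and 10.8-fold in deficient lungs, with an interaction of 2.26 ± 0.25 on the log2 scale (SE, n = 3 arrays per group, limma adjusted p = 0.00401, 95% interval 1.73 to 2.8).

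Brd2 encodes a bromodomain protein that reads acetylated histones. Its arrays were at 8.53, 8.44 and 8.47 (wildtype intact), 9.06, 8.77 and 8.94 (wildtype ventilated), 8.30, 8.28 and 8.35 (deficient intact) and 9.73, 9.74 and 9.78 (deficient ventilated). The 4 groups did not overlap, and the interaction was 0.99 ± 0.12 (adjusted p = 0.00494). Map2k3os, a transcript from the opposite strand at the MAP kinase kinase gene Map2k3, rose by 0.67 in wildtype and 1.83 in deficient lungs (interaction 1.17 ± 0.13, adjusted p = 0.0046). Its ventilated arrays were 7.19, 7.18 and 7.15 in wildtype and 7.85, 8.11 and 8.0 in deficient lungs, again without overlap.

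Foxq1, a forkhead transcription factor, rose 1.56-fold in wildtype and 5.0-fold in deficient lungs (interaction 1.68 ± 0.22, adjusted p = 0.0125). A second Foxq1 probe gave 0.33 and did not pass (adjusted p = 0.343 over the probes). Such a second probe existed for 6 of the 70 genes (Foxq1, Nab2, Pim1, Pstpip2, Chka and Mapkbp1), and none of the second probes passed, with values from 0.00 to 0.47. Ier5, an immediate early gene, measured 7.76, 7.36 and 7.63 in ventilated wildtype and 8.70, 8.79 and 8.74 in ventilated deficient lungs. The intact arrays of both genotypes overlapped between 6.95 and 7.22, and the interaction was 1.10 ± 0.15 (adjusted p = 0.0125). Hbegf, the membrane-anchored EGF receptor ligand, reached 9.27, 8.80 and 9.45 in ventilated wildtype lungs and 10.18, 10.23 and 10.38 in ventilated deficient lungs, from 7.90 to 8.30 in the 6 intact arrays. It rose 1.96-fold in wildtype and 4.88-fold in deficient lungs (interaction 1.32 ± 0.19, adjusted p = 0.0159), and the call was lost without deficient intact array 1 or deficient ventilated array 3.

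Among the chaperone genes, Dnajb1, the HSP40 partner of HSP70, had the largest interaction that passed. It measured 7.17, 7.25 and 7.45 in intact and 8.60, 7.63 and 8.43 in ventilated wildtype lungs, against 7.46, 7.36 and 7.38 in intact and 10.70, 10.03 and 10.67 in ventilated deficient lungs. The 3 ventilated deficient arrays stood above all others, and wildtype array 2 was the lowest ventilated array. The rise was 1.9-fold in wildtype and 8.39-fold in deficient lungs (interaction 2.14 ± 0.31, adjusted p = 0.0159). Chordc1, an HSP90 co-chaperone, rose in deficient lungs by 1.33 and had a wildtype change of 0.16 (interaction 1.17 ± 0.21, adjusted p = 0.0437). Bag3, an HSP70 co-chaperone of selective autophagy, rose in deficient lungs by 1.21, with 0.24 in wildtype (interaction 0.97 ± 0.18, adjusted p = 0.0441). Of the list of 20 heat shock chaperones, 18 were measured and these 3 passed (16.7%, beside 0.316% of all genes). The list's median interaction was 0.75, beside 0.01 over all genes, and 18 of 18 values were above 0. Its wildtype median was 0.45 with 7 genes that rose (3.67% of all genes did), and its deficient median was 1.24 with 16 that rose (8.89% of all genes). Hspa1a, an inducible HSP70, rose by 3.11 in wildtype and 4.88 in deficient lungs; its interaction of 1.77 ± 0.56 did not pass (adjusted p = 0.207), and ventilated wildtype array 2 lay at 9.14 against 11.08 and 11.15 in the other arrays of that group. Hspa1b, whose sequence is nearly identical so that the probes may share signal, had 1.44 ± 0.74 (adjusted p = 0.489). The number of chaperone genes that passed ran from 0 to 3 when 1 array was left out, and the median from 0.62 to 0.87.

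The immediate early genes made the largest listed group among the members. Their list of 28 genes joined AP-1, EGR and NR4A factors with other early genes, among them Ier2, Ier5 and Btg2. Of these 28, 27 were measured and 6 passed (22.2%, beside 0.316% of all genes), all positive. Btg2 was also on the list of p53 targets. Fosb, Jun, Ier2 and Ier5 were amplified and Nr4a1 and Btg2 reversed. Fosb, an AP-1 subunit, measured 5.88, 6.84 and 6.79 in intact and 7.12, 6.6 and 7.14 in ventilated wildtype lungs. In deficient lungs it measured 6.08, 7.30 and 5.96 intact and 9.94, 9.11 and 10.24 ventilated. The first 3 groups overlapped and the ventilated deficient arrays stood above all of them (interaction 2.86 ± 0.51, adjusted p = 0.0422). Jun (1.28 ± 0.24) and the early gene Ier2 (1.31 ± 0.25), both at an adjusted p of 0.0441, rose in deficient lungs by 1.57 and 1.61, with wildtype changes of 0.29 and 0.30. In the list as a whole 25 of 27 interactions were above 0, and the median was 0.85 beside 0.01 over all genes. In wildtype lungs 10 of its genes rose (3.67% of all genes did), and in deficient lungs 22 (8.89% of all genes). After ventilation 22 were higher in deficient than in wildtype lungs (4.72% of all genes were). Fos (2.32 ± 0.52, adjusted p = 0.0767), Egr1 (2.32 ± 0.52, adjusted p = 0.079), Atf3 (1.53 ± 0.35, adjusted p = 0.0861) and Myc (1.20 ± 0.24, adjusted p = 0.0575) did not pass. Maff, a small MAF factor, rose by 1.43 and 1.54 in the 2 genotypes, and its interaction was 0.11 with a 95% interval of -0.36 to 0.59. Between 1 and 11 of the listed genes passed when 1 array was left out, and the median lay between 0.68 and 1.03.

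**Figure D3:**
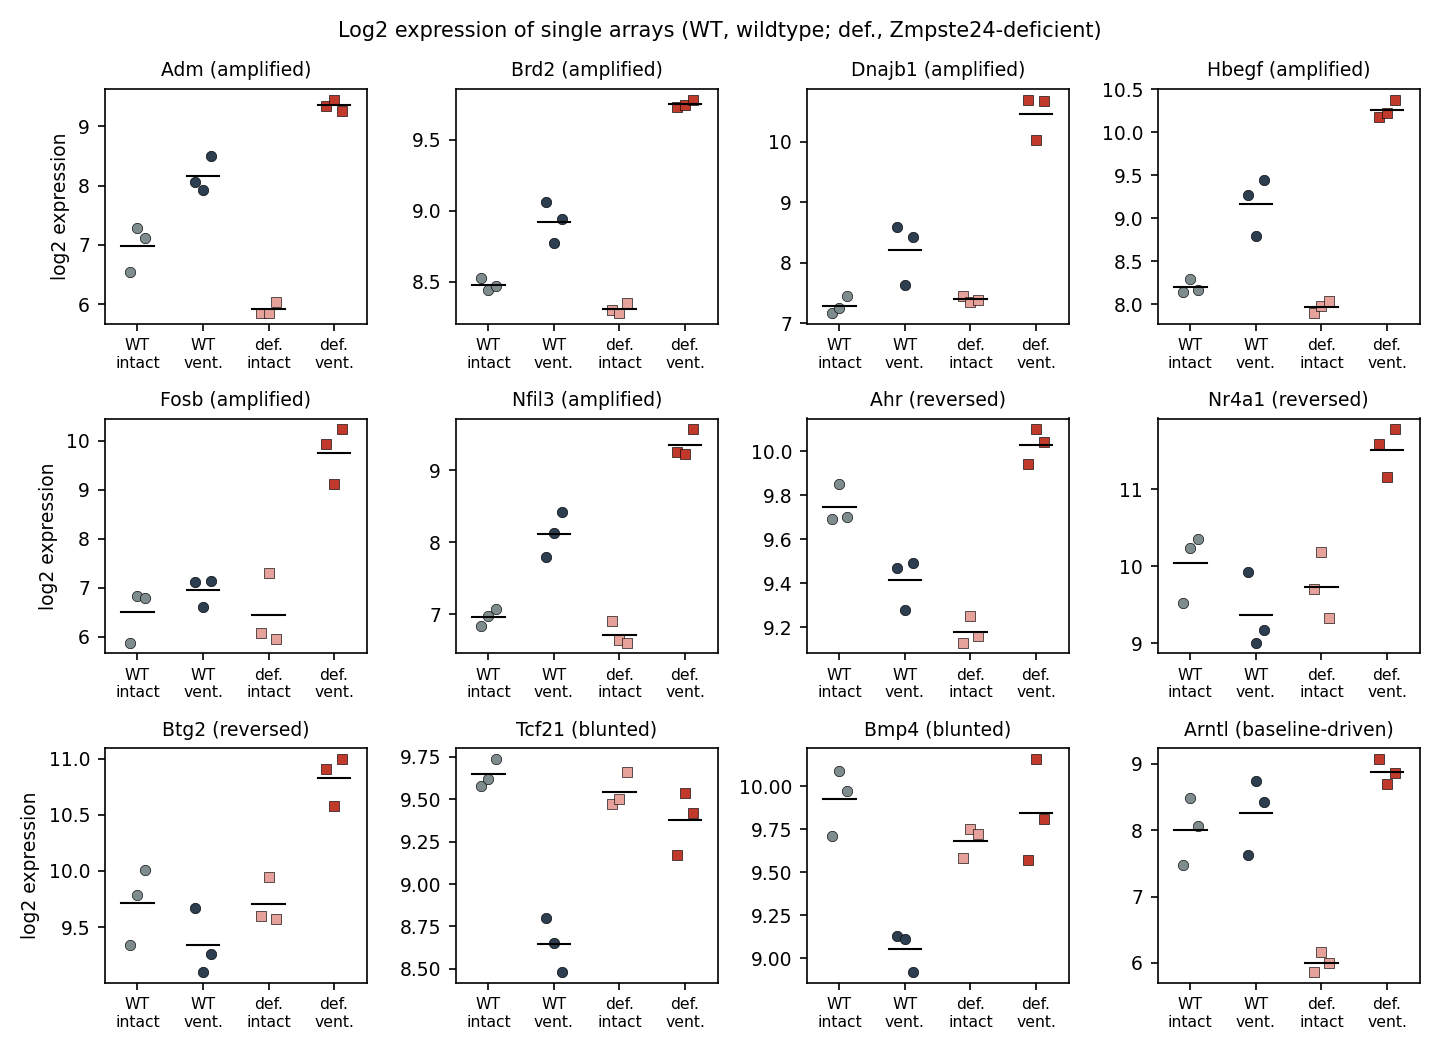
Log2 expression (y axis) of 12 interaction genes in every array, with the 4 groups along the x axis; points are single arrays and bars group means. In the amplified and reversed genes shown the 3 ventilated deficient arrays are the highest of 12, in Tcf21 and Bmp4 the 3 ventilated wildtype arrays are the lowest, and in Arntl the 3 intact deficient arrays are the lowest.

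Further amplified genes came from signalling and stress pathways. Nfil3, a bZIP repressor of D-box genes in the circadian clock and in immune cells, measured 7.80, 8.13 and 8.42 in ventilated wildtype and 9.26, 9.22 and 9.57 in ventilated deficient lungs. The intact arrays lay between 6.61 and 7.08 with both genotypes overlapping, so that the rise was 2.22-fold against 6.19-fold (interaction 1.48 ± 0.21, adjusted p = 0.0159). Dusp5, a nuclear phosphatase that switches off ERK, rose in deficient lungs by 1.15 and had a wildtype change of 0.00 (interaction 1.15 ± 0.22, adjusted p = 0.0441). It was the 1 gene of 16 MAP kinase feedback genes that passed (6.25%, beside 0.316% of all genes), in a list with a median of 0.34. In the ATF4 integrated stress response, Ppp1r15a, which brings a phosphatase to eIF2alpha and so ends the response, had an interaction of 1.08 ± 0.20 (adjusted p = 0.0437). Ddit3, the factor CHOP, rose by 0.45 in wildtype and 1.07 in deficient lungs, and its interaction of 0.62 ± 0.12 (adjusted p = 0.0468) lost its call whichever array was left out. These were 2 of 21 measured genes of that list (9.52%), whose median was 0.31. Chac1 (1.38 ± 0.31, adjusted p = 0.0836) and Atf4 itself (0.55 ± 0.15, adjusted p = 0.152) did not pass.

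Of the inflammatory lists, CC chemokines held 1 member among 14 measured genes (7.14%) and NF-kB subunits and inhibitors 1 among 13 (7.69%), beside 0.316% of all genes. Ccl3, a chemokine for monocytes and neutrophils, measured 8.80, 6.99 and 7.03 in ventilated wildtype lungs and 9.55, 9.31 and 9.81 in ventilated deficient lungs, from 6.6 to 7.01 in intact wildtype and 5.71 to 6.31 in intact deficient lungs. In ventilated wildtype lungs array 1 stood far above the other arrays of its group, and no ventilated deficient array overlapped another group. The interaction was 2.69 ± 0.51 (adjusted p = 0.0453), and the call held in 1 of the 12 fits that left out an array, the one without that array. Another CC chemokine, Ccl2, had 0.86 ± 0.29 (adjusted p = 0.24). Nfkbiz, an atypical IkB protein that steers secondary NF-kB targets, rose in deficient lungs by 1.15, with 0.30 in wildtype (interaction 0.85 ± 0.16, adjusted p = 0.0441). None of 15 measured cytokines passed in limma (median 0.32), Il6 having 1.22 ± 0.42 (adjusted p = 0.256), and none of 7 neutrophil-attracting CXC chemokines (median 0.06). At an unadjusted p under 0.05 in limma there were 8 of the 15 and 1 of the 7, beside 11.7% of all genes. Neutrophil marker genes moved beside these values: 9 of 17 were higher (4.72% of all genes were) and 1 was lower (6.08% of all genes) in deficient than in wildtype lungs after ventilation. The mean over the list lay between 6.46 and 6.85 in the ventilated wildtype arrays and between 7.21 and 7.29 in the ventilated deficient arrays, with 5.82 to 6.12 and 5.93 to 6.44 in the intact groups. The member that was lower, the granule gene Ltf, measured 9.11, 8.05 and 7.57 in ventilated wildtype and 5.83, 5.7 and 6.17 in ventilated deficient lungs (interaction -2.38 ± 0.85, adjusted p = 0.268), and the granule gene Ngp lay between 4.30 and 5.27 in all arrays. The part of these cells in the result was not tested.

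Sgk1, a kinase induced by glucocorticoids and stress, rose in deficient lungs by 0.75 with -0.01 in wildtype (interaction 0.76 ± 0.15, adjusted p = 0.0478). It was the 1 gene of 17 glucocorticoid-induced genes that passed (5.88%, beside 0.316% of all genes), in a list with a median of -0.23 in which 5 values were above 0. Adm was the 1 gene of 17 hypoxia and glycolysis genes that passed (5.88%, median 0.05). Vegfa, a hypoxia target, had an interaction of 0.13 with a 95% interval of -0.13 to 0.39. NRF2 targets (15 measured, median 0.12) and endoplasmic reticulum chaperones (14 measured, median 0.01) held none. In each list 4 had an unadjusted p under 0.05 in limma (11.7% of all genes had). Slc7a11, the cystine transporter, rose by 4.18 and 4.30 in the 2 genotypes, and the interval of its interaction ran from -0.91 to 1.15. A further 24 amplified genes with positive interactions, between 0.59 and 1.88, fell outside the rule for naming and are given as chosen after their values were seen where named here: they include Ccnl1 (a cyclin of the splicing machinery, 0.89 ± 0.12), Frat2 (a GSK3-binding Wnt regulator, 1.63 ± 0.24), Lonrf3 (1.88 ± 0.28), the kinase Pim1 (1.22 ± 0.21) and Mmp19 (a matrix metalloproteinase, 1.04 ± 0.19).

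Promoter sequence of the members was read from the 250 bases upstream of the start in RefSeq (GRCm38.p6), which matched 50 of the 70 genes, 45 of them with a positive interaction. The full cAMP response element TGACGTCA, to which CREB and ATF factors bind, was found in 5 of the 45 promoters (11.1%), those of Ccnl1, Btg2, Wsb1, Ppp1r15a and Zfand2a. Of the 16990 measured genes with a promoter 2.11% held it, and of all 27025 promoters 1.62%. The half-site TGACG, which is contained in the full element, was found on either strand in 19 of the 45 (42.2%), in 20.9% of the measured and in 17.9% of all. The other motifs were searched on both strands of the same 45 promoters. Only the CArG box exceeded its share of the measured promoters (2.22% against 1.29%), through 1 gene, Dusp5. The AP-1 site TGANTCA had 4.44% against 6.48%, the heat shock pair GAANNTTC 2.22% against 6.12% and the E-box CACGTG 6.67% against 6.86%. The D-box TTANGTAA had 0.00% against 1.92%, the NF-kB site 4.44% against 7.69% and the C/EBP-ATF element TGATGNAA 0.00% against 3.03%. Among the 35 amplified promoters, of either sign, the AP-1 site was in 3 (8.57%). These were Bag3, Ddit3 and Tnxb, the last with a negative interaction. The full cAMP response element was also in 3 of the 35 (8.57%). The motif counts carry no test, and a match is a description of letters in this window. The background promoters were not matched to the members in expression level or base content.

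The sequences that hold the full element are shown because it was the motif with the largest ratio to its background. Each is written 5′ to 3′ on the strand of the gene, with the element in capitals; the Ccnl1 promoter is given whole and the other 4 as the bases around the element. Nr4a1, with 4 half-sites in 250 bases, more than any other member, is given whole with the half-sites in capitals (CGTCA is TGACG read on the other strand). Coordinates are chr3:65958250-65958499 on the minus strand for Ccnl1, chr1:134079288-134079347 (minus) for Btg2, chr11:79254700-79254759 (minus) for Wsb1, chr7:45526269-45526306 (minus) for Ppp1r15a, chr5:139484583-139484642 (minus) for Zfand2a and chr15:101266596-101266845 (plus) for Nr4a1. The element starts 18, 166, 38, 12 and 125 bases before the start of the first 5.
Ccnl1: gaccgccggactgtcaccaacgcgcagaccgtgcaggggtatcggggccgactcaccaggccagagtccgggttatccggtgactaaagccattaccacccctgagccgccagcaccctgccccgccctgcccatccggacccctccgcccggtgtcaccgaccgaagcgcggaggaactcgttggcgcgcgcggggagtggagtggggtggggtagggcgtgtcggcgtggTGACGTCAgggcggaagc
Btg2: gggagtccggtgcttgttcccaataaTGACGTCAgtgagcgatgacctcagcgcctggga
Wsb1: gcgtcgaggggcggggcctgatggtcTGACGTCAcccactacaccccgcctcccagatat
Ppp1r15a: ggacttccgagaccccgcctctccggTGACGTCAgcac
Zfand2a: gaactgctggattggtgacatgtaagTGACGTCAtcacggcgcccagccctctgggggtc
Nr4a1: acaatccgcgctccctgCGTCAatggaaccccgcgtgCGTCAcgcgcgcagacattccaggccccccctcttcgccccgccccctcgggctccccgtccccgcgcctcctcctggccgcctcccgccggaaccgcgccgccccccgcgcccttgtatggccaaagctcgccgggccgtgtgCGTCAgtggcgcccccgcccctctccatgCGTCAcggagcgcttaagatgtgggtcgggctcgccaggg
Of the 5 genes with the full element, Ppp1r15a, Ccnl1 and Zfand2a were amplified, Btg2 was reversed and Wsb1 was baseline-driven. Whether the place of the element goes with the class was not tested. Ventilated deficient arrays lay at 8.58, 8.82 and 8.87 in Ppp1r15a and at 9.80, 9.76 and 10.02 in Ccnl1. Zfand2a, a proteasome-associated stress protein, had an interaction of 0.74 ± 0.14. Members were also brighter than the average gene: their median level in intact wildtype lungs was 7.43, beside 6.06 over all genes, and 5 of the 70 had at least 1 group mean under the array median of 5.39. Of the 70 genes, 22 were in at least 1 of the 48 gene lists and 48 in none.

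The 4 amplified genes with a negative interaction fell with ventilation in deficient lungs, and their wildtype changes did not pass. They were Mmrn2, Tnxb, Aspn and the unnamed transcript C230072F16Rik, the first 3 of which encode extracellular matrix proteins (multimerin 2 of endothelium, tenascin-X and the small proteoglycan asporin). Mmrn2 measured 8.18, 8.15 and 8.14 in ventilated wildtype lungs and 7.18, 7.45 and 7.33 in ventilated deficient lungs, while the intact arrays lay between 8.17 and 8.43 (interaction -0.66 ± 0.11, adjusted p = 0.0388). Tnxb measured 8.06, 7.67 and 7.61 in ventilated wildtype lungs and 7.07, 6.84 and 6.82 in ventilated deficient lungs (interaction -1.13 ± 0.21, adjusted p = 0.0441). Aspn measured 7.24, 7.42 and 7.21 against 6.16, 6.49 and 6.16 (interaction -1.16 ± 0.22, adjusted p = 0.0468). In all 4 genes the ventilated deficient arrays were below the other 9, which 1401 of all genes (6.32%) were. Of 24 measured matrix and collagen genes on the list used here none passed in limma, and their median was 0.01. An unadjusted p under 0.05 in limma was found in 10 of them (11.7% of all genes had one).

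Reversed genes had ventilation changes of opposite sign in the 2 genotypes. Ahr, the aryl hydrocarbon receptor, a ligand-activated transcription factor, had the smallest adjusted p of them. It measured 9.69, 9.85 and 9.70 in intact and 9.47, 9.28 and 9.49 in ventilated wildtype lungs, and 9.13, 9.25 and 9.16 in intact and 9.94, 10.10 and 10.04 in ventilated deficient lungs. No group overlapped another; Ahr fell by 0.33 in wildtype lungs (adjusted p = 0.0327) and rose by 0.85 in deficient lungs (adjusted p = 2.58e-05), with an interaction of 1.18 ± 0.12 (adjusted p = 0.00401). It was the 1 gene of all 22180 that passed downward in wildtype and upward in deficient lungs. Its genotype difference was -0.57 ± 0.09 in intact and 0.61 ± 0.09 in ventilated lungs, so it lay close to the boundary of the baseline-driven class. The other 5 positive members rose in deficient lungs and had a negative wildtype change that did not pass.

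Nr4a1, an orphan nuclear receptor and early gene, measured 9.52, 10.24 and 10.36 in intact and 9.92, 9.01 and 9.17 in ventilated wildtype lungs. It measured 9.70, 10.18 and 9.33 in intact and 11.59, 11.16 and 11.78 in ventilated deficient lungs. The first 3 groups overlapped and the last stood above them; the wildtype change was -0.67 (adjusted p = 0.182), the deficient change 1.77 and the interaction 2.44 ± 0.39 (adjusted p = 0.03). Btg2, an antiproliferative p53 target, had the same arrangement with 9.67, 9.10 and 9.26 in ventilated wildtype and 10.91, 10.58 and 11.00 in ventilated deficient lungs (interaction 1.49 ± 0.26, adjusted p = 0.0422). It was the 1 gene of 18 p53 targets that passed (5.56%, beside 0.316% of all genes), and Cdkn1a (1.26 ± 0.28, adjusted p = 0.0758) did not. Id3, an inhibitor of basic helix-loop-helix factors and BMP target, measured 8.72, 8.06 and 8.50 in ventilated wildtype and 9.44, 9.46 and 9.69 in ventilated deficient lungs (interaction 1.30 ± 0.22, adjusted p = 0.0388). Rgs1, which dampens G protein signals in leukocytes, lay between 4.41 and 5.51 in all arrays. Its means of 5.06 in intact wildtype, 4.61 in intact deficient and 4.67 in ventilated wildtype lungs were under the array median of 5.39. In ventilated deficient lungs the mean of Rgs1 was 5.45, and its interaction was 1.22 ± 0.18 (adjusted p = 0.0173). Zswim5 had 0.81 ± 0.13 (adjusted p = 0.03). Filip1, which binds filamin A, went the other way. It rose by 0.33 in wildtype and fell by 0.40 in deficient lungs, with ventilated arrays at 7.05, 7.14 and 7.27 against 6.23, 6.25 and 6.29 and an interaction of -0.73 ± 0.12 (adjusted p = 0.0321). Among the 70 genes, 9 had opposite signs with both changes at least 0.25, and in 13 more the smaller change was under that size.

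Blunted genes changed in wildtype lungs and did not pass in deficient lungs. The 6 members split evenly between 3 that fell and 3 that rose in wildtype. Those that fell were Tcf21, Bmp4 and Tox3. Tcf21, a mesenchymal transcription factor of lung fibroblasts, measured 9.58, 9.62 and 9.74 in intact and 8.80, 8.65 and 8.48 in ventilated wildtype lungs. In deficient lungs it measured 9.47, 9.50 and 9.66 intact and 9.17, 9.54 and 9.42 ventilated. The ventilated wildtype arrays stood below all others and the deficient groups overlapped (wildtype change -1.0, deficient change -0.17, interaction 0.84 ± 0.16, adjusted p = 0.0441). Bmp4, a secreted ligand of the BMP pathway, measured 9.13, 9.11 and 8.92 in ventilated wildtype lungs and 9.57, 10.16 and 9.81 in ventilated deficient lungs, with all intact arrays between 9.58 and 10.09 (interaction 1.03 ± 0.19, adjusted p = 0.0441). Tox3, an HMG-box factor, fell by 0.75 in wildtype and had a change of 0.20 in deficient lungs (interaction 0.95 ± 0.17, adjusted p = 0.0422). Of 16 BMP and ALK1 signalling genes, Bmp4 and Id3 passed (12.5%, beside 0.316% of all genes), 14 interactions were above 0 and the median was 0.27. In that list 11 genes fell in wildtype lungs (3.53% of all genes did). In deficient lungs 8 fell (7.52% of all genes) and 2 rose (8.89% of all genes). The inhibitory Smad6 fell by 1.29 and 0.71 in the 2 genotypes, and its interaction of 0.58 ± 0.15 did not pass (adjusted p = 0.126). Tcf21 was the 1 gene of 15 fibroblast and smooth muscle markers that passed (6.67%). After ventilation 6 of these markers were lower (6.08% of all genes were) and 1, Tcf21, was higher (4.72% of all genes) in deficient than in wildtype lungs (median difference -0.57). The mean over the list lay between 8.67 and 9.14 in ventilated wildtype and between 8.34 and 8.41 in ventilated deficient arrays, with 8.94 to 9.11 and 8.56 to 9.01 in the intact groups. The part of these cells in the result was not tested.

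The blunted genes that rose in wildtype lungs were Acr, Gm16685 and Olfr1076. Acr, the sperm protease acrosin, measured 7.51, 7.35 and 7.47 in ventilated wildtype lungs, and the other 9 arrays lay between 6.23 and 6.72 (interaction -1.03 ± 0.20, adjusted p = 0.0468). Olfr1076, an olfactory receptor of a large family whose probes can share signal, lay between 4.07 and 4.69, below the array median of 5.39. Its call was lost whichever array was left out.

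Baseline-driven genes differed more between genotypes in intact than in ventilated lungs. In 9 of the 12 the intact deficient lungs were lower than wildtype and in 3 higher, and 6 no longer differed between genotypes at the threshold after ventilation. The other 6 passed for genotype in both conditions, with the opposite sign after ventilation. Among these, Ikzf4 differed by -0.49 intact and 0.41 ventilated, and Gsdmcl2 by 0.52 and -0.39. Over all genes, 1399 passed for genotype in intact lungs (6.31%; 2.2% higher and 4.11% lower in deficient lungs) and 2395 in ventilated lungs (10.8%; 4.72% higher and 6.08% lower); among the 70, 53 passed for genotype in ventilated lungs only, 6 in intact lungs only, 11 in both and none in neither. The clock gene Arntl (BMAL1), an activator at E-boxes, was the largest case. It measured 7.47, 8.49 and 8.06 in intact and 7.62, 8.75 and 8.42 in ventilated wildtype lungs, and 5.86, 6.16 and 5.99 in intact and 9.08, 8.70 and 8.87 in ventilated deficient lungs. The wildtype groups overlapped, the intact deficient arrays stood below all others, and ventilated deficient array 2 lay within the ventilated wildtype range. The wildtype change was 0.25 (adjusted p = 0.664) and the deficient change 2.88, a 7.38-fold rise, with an interaction of 2.63 ± 0.37 (adjusted p = 0.0159); the call was lost without deficient intact array 1.

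Other clock genes moved with Arntl. The list of clock activators together with the repressor Nfil3 held 5 genes. Of these, Arntl and Nfil3 passed (40.0%, beside 0.316% of all genes). All 5 interactions were above 0, the lowest at 0.05, and the median of 1.48 was the value of Nfil3. Npas2 had 1.62 ± 0.46 (adjusted p = 0.16) and Clock 0.53 ± 0.14 (adjusted p = 0.132). Of 12 measured clock outputs and repressors none passed in limma and 11 had an unadjusted p under 0.05 (11.7% of all genes had). All 12 interactions were below 0, with a median of -0.70. In that list 7 genes were higher in deficient than in wildtype intact lungs (2.2% of all genes were). With ventilation 9 fell in deficient lungs (7.52% of all genes did), and none differed by genotype after ventilation (10.8% of all genes did). Dbp, an output of the clock, measured 9.45, 7.45 and 7.94 in intact wildtype lungs, 8.03, 6.90 and 7.12 in ventilated wildtype lungs, 9.81, 9.44 and 9.64 in intact deficient lungs and 6.68, 6.72 and 6.91 in ventilated deficient lungs. Its intact wildtype arrays spread over 2 log2 units, its interaction of -1.92 ± 0.55 did not pass (adjusted p = 0.167), and Per3 (-1.55 ± 0.39, adjusted p = 0.118) did not either. The part of collection time in these values was not tested.

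The remaining baseline-driven genes were smaller cases. Mest, an imprinted gene, measured 7.03, 6.92 and 6.88 in intact wildtype and 6.30, 6.20 and 6.28 in intact deficient lungs, and 7.24, 7.0 and 7.29 against 7.15, 7.43 and 7.45 after ventilation. The genotypes were apart before ventilation and overlapped after it (interaction 0.85 ± 0.14, adjusted p = 0.0388). Wsb1, a substrate receptor of a ubiquitin ligase, was lower by 0.85 in intact deficient lungs and rose in both genotypes, by 0.53 and 1.57 (interaction 1.04 ± 0.19, adjusted p = 0.0422). Pcdh12, an endothelial protocadherin, and Arhgap20 fell in wildtype lungs by 0.46 and 0.90, while their deficient changes were 0.21 and -0.04, and their interactions were 0.67 ± 0.12 and 0.87 ± 0.15. In Arhgap20 the ventilated wildtype arrays (7.47, 7.64 and 7.42) overlapped the intact deficient arrays (7.69, 7.54 and 7.83), and in Pcdh12 they lay between the intact groups. Prdm8, a PR-domain factor named here after its values were seen, was lower in intact deficient lungs by 1.12. It fell by 1.36 in wildtype lungs, from 7.42, 7.79 and 7.35 to 6.20, 6.30 and 5.98, and the intact deficient arrays lay at 6.18, 6.54 and 6.48. Ikzf4 (an Ikaros family factor), Cables2 and Tmem189 had interactions of 0.90 ± 0.16, 0.71 ± 0.12 and 0.86 ± 0.15. Of the 3 negative members, Etfbkmt, a mitochondrial lysine methyltransferase, fell by 0.80 in deficient lungs only (interaction -0.79 ± 0.13, adjusted p = 0.0388). Gsdmcl2, a gasdermin of a family of near copies, had -0.91 ± 0.15, and the ribosomal pseudogene Rps15a-ps8, at 3.49 to 4.21 in all arrays, had -0.88 ± 0.13; probes of these genes may share signal with their copies.

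**Figure D4:**
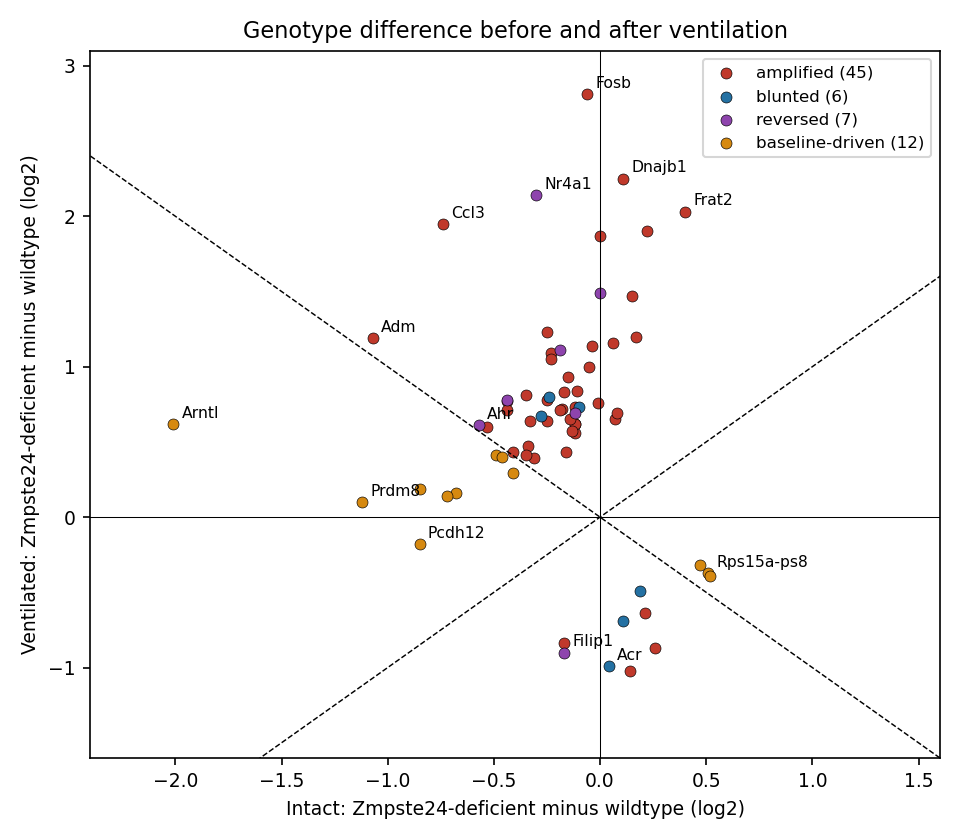
Genotype difference (Zmpste24-deficient minus wildtype, log2) in intact lungs on the x axis and in ventilated lungs on the y axis for the 70 genes, coloured by class; dashed lines mark equal sizes. The 12 baseline-driven genes lie to the left or right of the dashed lines by their definition, with Arntl at -2.01 and 0.62, and Fosb lies at -0.06 and 2.81.

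**Figure D5:**
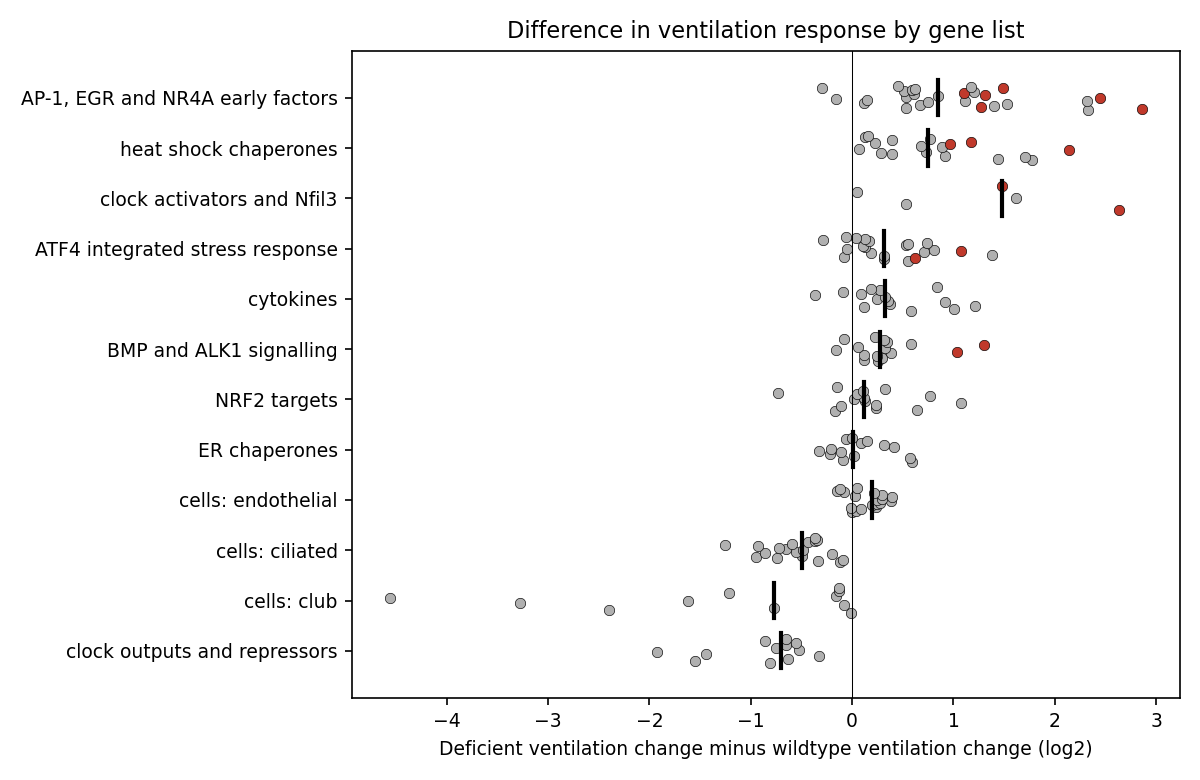
Interaction (log2, x axis) of each measured gene in 12 of the gene lists (y axis); red points passed, grey points did not, and black bars are list medians. The medians run from -0.77 for club cell markers to 1.48 for the list of clock activators and Nfil3, beside 0.01 over all genes.

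The 14 cell type lists held 194 measured genes, of which 1 passed (0.515%), a share near the 0.316% of all genes. That gene was Tcf21 of the fibroblast and smooth muscle list. The endothelial list (19 genes) had a median interaction of 0.19. With ventilation 12 of its genes fell in wildtype lungs (3.53% of all genes did) and 11 in deficient lungs (7.52% of all genes). In the ciliated cell list none of 19 passed in limma and 14 had an unadjusted p under 0.05 (11.7% of all genes had). All its interactions were below 0 (median -0.49). In deficient lungs 12 of its genes fell (7.52% of all genes did), against none in wildtype lungs (3.53% of all genes). The mean of the ciliated list lay between 7.37 and 7.77 in intact wildtype, 7.46 and 7.66 in ventilated wildtype, 7.72 and 8.16 in intact deficient and 7.29 and 7.39 in ventilated deficient lungs. Alveolar type 2 markers (13 genes) lay between 10.99 and 11.33 as a mean over the list in all arrays, with a median interaction of -0.23. Club cell secretory genes varied widely within groups: Bpifa1 measured 8.42, 5.06 and 11.04 in intact wildtype lungs, its interaction of -3.27 ± 2.37 did not pass (adjusted p = 0.667), and the list's median was -0.77.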

How the data were processed

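Lung RNA of 12 mice, 100 ng per array, was labelled and hybridised to one-colour Affymetrix arrays, per the labels' protocols. The authors deposited log2 expression values per probe. That the scale is log2 was read from the range of the values. The submitters' processing notes name RMA and limma without versions. RMA corrects background, equalises array distributions and summarises probes, so a shift shared by all genes would not be seen. The sources used here give no scan batches.

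Of 41345 probes, 23521 had 1 gene symbol, 1814 several and 16010 none in the platform annotation. Identifiers of 23328 matched the RefSeq table (GRCm38.p6) and 193 did not. For a gene with several 1-symbol probes the brightest on average was used, leaving 22180 genes, 1082 of them with more than 1 probe. The sources used here name no build for the probes.

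The 4 group means were estimated jointly from the 12 arrays in limma 3.58.1 (R 4.3.3; lmFit, eBayes). Benjamini-Hochberg adjustment ran over all 22180 genes, with 0.05 as the threshold. Errors are standard errors of that fit. The script was tested on simulated data. Alternatives changed the filter on low values, the scaling, the choice of probe, the variance model, the class rules and the arrays included.

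The members and the gene lists were chosen with earlier results of these data known, so list counts and medians are descriptions without a test. Named genes were, in each class and sign, the up to 8 with the smallest adjusted p, and the up to 4 such members of each of 48 lists, plus Zmpste24 and Lmna. Predicted genes and receptor families were counted but not named by the first part of this rule; others are named as chosen after their values were seen, or as markers beside a result. Replicate numbers were not taken to pair arrays. Over all genes, the deviations of same-numbered arrays from their group means correlated at -0.152 to 0.153 (2 of 18 over 0.1). This check covers all genes at once, so it cannot exclude a batch that moves fewer genes. With the number as a block, 43 genes passed, 34 of them among the 70. The number of arrays limits the precision.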

Additional observations from a re-analysis of the deposited data

Results flagged for a closer look

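Each result below is listed because the effect of ventilation differed between the genotypes by the limma test of the difference itself, and 70 genes did so in all. Values are interactions on the log2 scale (deficient change minus wildtype change), and they are grouped by how many of the 12 fits that leave out 1 array kept the call.

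All 12 fits kept Adm (2.26), Foxq1 (1.68), Nfil3 (1.48), Ahr (1.18), Map2k3os (1.17), Ier5 (1.10) and Brd2 (0.99). Arntl (2.63) and Rgs1 (1.22) kept theirs in 11, both losing it without deficient intact array 1. Dnajb1 (2.14), Hbegf (1.32) and Rps15a-ps8 (-0.88) were called in 10, and all 3 were lost without deficient intact array 1 or deficient ventilated array 3. Gsdmcl2 (-0.91) was called in 6 fits and Nr4a1 (2.44) in 5.

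Fosb (2.86), Zswim5 (0.81), Etfbkmt (-0.79) and Mmrn2 (-0.66) were called in 4 fits. In 3 fits the call held for Btg2 (1.49), Id3 (1.30), Chordc1 (1.17), Dusp5 (1.15), Ppp1r15a (1.08), Bag3 (0.97), Tox3 (0.95), Ikzf4 (0.90), Tmem189 (0.86), Mest (0.85), Tcf21 (0.84), Cables2 (0.71), Filip1 (-0.73) and Tnxb (-1.13). In 2 fits it held for Wsb1 (1.04), Bmp4 (1.03), Arhgap20 (0.87), Nfkbiz (0.85), Pcdh12 (0.67), Acr (-1.03) and Aspn (-1.16). Ccl3 (2.69) held it only without wildtype ventilated array 1 and Sgk1 (0.76) only without wildtype intact array 1. Ddit3 (0.62) held it in none of the 12.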

How the results depend on the processing

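Each of the 70 genes kept its sign in every one of the 21 refits that tested it (63 were tested in all, and the filters on low values removed 2 and 7), and of the named genes' values 593 stayed on their side of the threshold, 370 did not and 0 reversed; the counts moved far more. Leaving out 1 array gave 8 to 118 genes, 7 to 87 positive, 0 to 31 negative, 7 to 54 amplified, 0 to 8 blunted, 1 to 14 reversed and 0 to 42 baseline-driven. Without genes under the 25th percentile of mean expression, 20 were negative and 20 baseline-driven. Without genes under the median of mean expression, 152 passed (114 positive, 38 negative, 92 amplified, 12 reversed, 42 baseline-driven), including the 63 of the 70 it tested. A further quantile normalization left 26 (22 positive, 4 negative, 14 amplified, 0 blunted, 4 reversed), all among the 70. eBayes with trend and robust settings gave 112 (28 negative, 29 baseline-driven). Array weights gave 164 (121 positive, 43 negative, 93 amplified, 11 blunted, 15 reversed, 45 baseline-driven). With the replicate number as a block, 43 passed (32 positive, 24 amplified, 2 blunted), 34 of them among the 70 and 9 not. The sources used here do not say whether the numbers mark a shared batch. At an adjusted p under 0.01, 4 passed (4 positive, 0 negative, 3 amplified, 0 blunted, 1 reversed, 0 baseline-driven). With no minimum for reversed genes there were 1 blunted and 17 reversed, with a minimum of 0.5 there was 1 reversed, and defining the baseline-driven class by the tests gave 6 such genes and dropping it 0. An alternative chosen after seeing the data, adjusting over all 41345 probes, left 4. A stricter threshold passes fewer genes by construction, and the causes of the other moves were not tested. With 3 arrays per group, differences under about the size of those reported here pass seldom, and 2 of the 70 genes lay under the array median in all groups.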

Other observations

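Tissue genes that a lung sample can carry from its surroundings were read array by array. The liver list (14 measured genes) had a median interaction of 0.65, and no gene passed in limma (4 at an unadjusted p under 0.05, beside 11.7% of all genes). Its mean lay between 5.42 and 7.57 in the intact wildtype arrays, between 4.92 and 5.92 in the ventilated wildtype arrays, and between 4.74 and 4.93 in the deficient arrays; when 1 array was left out the median ran from 0.08 to 0.94. The adipocyte list (11 genes) had a median of -0.77, ranging from -1.34 to -0.29 when 1 array was left out, and its mean spread from 6.08 to 7.96 within the intact deficient group. The cardiac muscle list (14 genes) had a median of -0.28 and ran from -0.88 to 0.02. None of these list genes was among the 70, and the part of such tissue in the result was not tested.

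Many small nucleolar RNAs differed between the genotypes before ventilation. Of 78 measured, 42 were higher in intact deficient lungs (2.2% of all genes were) and 26 in ventilated deficient lungs (4.72% of all genes). In 12 the interaction was above 0, the median was -0.31, and none passed in limma (22 at an unadjusted p under 0.05, beside 11.7% of all genes). Cytosolic ribosomal protein genes (66 measured) had a median of 0.00 and respiratory chain subunits (78 measured) -0.11; none passed in either list, and 7 and 5 had an unadjusted p under 0.05.

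Probes without a single gene symbol were fitted together with the others. Adjusted over all 41345 probes, Adm, Ahr, Map2k3os and Brd2 passed, each at an adjusted p of 0.0321, and none of the 1814 probes with several symbols or the 16010 with none did; at an unadjusted p under 0.05 the gene-level fit had 2598 genes.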
